A study of Mus musculus with 4 samples.

Results

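The 38 genes described here fall into 4 groups. They are enzymes and transporters of glycolysis and lactate handling together with the cytokine gene Mif (20 genes), Hif1a with genes linked to hypoxia-inducible factor (4), enzymes of serine and one-carbon synthesis (7) and growth genes linked to Myc (7). They were taken by gene ID from a list drawn up with earlier results of these data known, so that counts over them are descriptions, and all 38 were found among the 33696 gene IDs of the WT library and the 32285 of the A20ZF7 library. The 2 libraries were made by single-cell RNA-Seq on cells that had been isolated from the lamina propria of the small intestine (SILP) of 12-week-old mice and then depleted, by antibodies, of cells other than T cells and innate lymphoid cells (ILCs). A20, encoded by Tnfaip3, is a ubiquitin-binding protein that restrains inflammatory signaling. A20ZF7 mice carry point mutations in its zinc finger 7 on both alleles in every cell, and WT mice carry none. Each genotype is 1 library of 2 pooled mice, so there are no replicates, no difference between the genotypes could be tested, and every interval below covers counting error alone. As the mutations are point mutations in the coding sequence, the level of Tnfaip3 was not used to check the labels. In CPM (UMI counts scaled to the same total in each class and library), it was 1468 in WT and 1463 in A20ZF7 T cells, 829 and 1307 in ILC2-like, 182 and 475 in fibroblast-like and 188 and 539 in smooth muscle-like barcodes.

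Glycolysis splits glucose into pyruvate in the cytosol, and lactate dehydrogenase turns pyruvate into lactate when flux is high. Activated lymphocytes are known to raise this pathway as they begin to divide, under control of Myc and HIF-1, and Th17 cells in particular are known to use HIF-1. A branch from 3-phosphoglycerate makes serine, whose carbon feeds the synthesis of nucleotides, and nucleolar proteins such as nucleolin serve the making of ribosomes.

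Filtering left 14722 WT barcodes with a median of 1060 UMIs and 43162 A20ZF7 barcodes with a median of 853 UMIs. Of these, 61.6% of WT and 51.2% of A20ZF7 barcodes fell into a class set by UMIs of marker genes that include none of the 38. The classes compared were CD8 T-like (312 WT and 1103 A20ZF7 barcodes), γδ T-like (194 and 450), Th17-like T (377 and 4312), naive-like T (119 and 235), T cells outside these gates and that for Foxp3 (other T, 1286 and 4866), ILC2-like (605 and 785), ILC3-like (360 and 1056), macrophage-like (95 and 308), fibroblast-like (4063 and 7368), smooth muscle-like (1328 and 627) and endothelial-like (222 and 305). Of the other T barcodes, 788 in WT and 2112 in A20ZF7 held no UMI of the Th17 marker genes. The class is thus not free of Th17 marks, with Il17a at 131 and 696 CPM. All T cells together were 2335 WT and 11566 A20ZF7 barcodes. Foxp3-bearing T, ILC1 or NK-like, dendritic-like, mast-like and glia-like barcodes numbered under 50 in at least 1 library and were not compared alone. Part of the WT barcodes could be assigned to WT mouse 1 or WT mouse 2 by their hashtags, 834 and 1058 of the 2335 T barcodes but 568 and 649 of the 4063 fibroblast-like ones, and values of a mouse leave out the barcodes with no assignment. The hashtag files of the A20ZF7 library were byte for byte those of WT (3 of 3 files), so A20ZF7 values are of both mice pooled and doublets between mice could be removed from WT alone. The libraries shared 913 of the kept barcode sequences.

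The libraries differed in ways that touch the values below. The share of T barcodes with a UMI of Mki67, Top2a, Birc5, Cdk1, Ccnb1 or Ccnb2 was 6.04% in WT and 17.01% in A20ZF7, and Th17-like barcodes were 16.1% and 37.3% of T barcodes. T cell RNA was found outside the T cells, and more of it in A20ZF7. The 6 T cell receptor genes of the T gate summed to 98.3 CPM in WT and 267 CPM in A20ZF7 fibroblast-like barcodes, against 3378 and 3603 CPM in T cells. The stromal gates allow at most 1 UMI of these genes, which holds their sum down by construction. Cd5, a T cell surface gene not used in the gates, was at 8.60 and 45.6 CPM in fibroblast-like barcodes. In smooth muscle-like barcodes Cd5 was at 6.01 and 53.6 CPM, in endothelial-like ones at 14.3 and 80.9 CPM and in ILC2-like ones at 3.45 and 89.9 CPM. It was at 25.1 and 104 CPM in ILC3-like barcodes, against 115 and 153 CPM in T cells. Both libraries were counted against gene lists that share 31950 IDs but differ in the others, which cannot be told apart from genotype. Of the shared IDs, 1905 carry a different symbol in the 2 lists, and whether shared genes were counted alike was not tested. Despite the depletion, stromal cells made up much of both libraries. Macrophage-like barcodes had Lyz2 at 2955 and 3012 CPM and ILC2-like barcodes Gata3 at 1205 and 1175 CPM. Both are genes of the gates, so their presence there is by construction. Mrc1, not used in the gates, was at 384 and 354 CPM in macrophage-like barcodes and at 0.771 and 1.37 CPM in T cells. In ILC2-like barcodes the gate gene Il1rl1 was at 34.5 and 103 CPM. Il17a was at 632 and 502 CPM there, against 296 and 1994 CPM in T cells. WT Th17-like barcodes had less Cd4 than A20ZF7 ones (107 and 230 CPM) and more of the innate receptor gene Ncr1 (50.7 and 7.26 CPM), so this class is not alike in makeup in the 2 genotypes.

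Since hypoxia-inducible factors bind DNA at ACGTG and Myc at CACGTG, the promoters of the 38 genes were searched for these letters on both strands, in RefSeq windows of 300 bases in GRCm38.p6 that run from 250 bases before to 50 bases after the start. Windows were at hand for 34 of the 38 genes. The list was drawn up around pathways that HIF-1 and Myc control, so the shares below are descriptions. ACGTG was found in windows of 18 of the 34 genes (52.9%), against 21.8% of 27025 genes with a window. CACGTG, which contains ACGTG, was found in 5 of 34 (14.7%: Pfkfb3, Ldha, Slc16a1, Hif1a and Bnip3), against 8.09% of all genes. The windows of Hif1a, Hk2, Pgk1 and Pkm, genes on which the comparisons below turn, and of Ldha, with the most matches of the 34 genes, are printed 5′ to 3′ on the coding strand with each match in capitals, where CACGT is ACGTG on the other strand. Hif1a is at chr12:73907617-73907916 (plus strand), Hk2 at chr6:82774405-82774704 (minus), Pgk1 at chrX:106186850-106187149 (plus), Pkm at chr9:59656977-59657276 (plus) and Ldha at chr7:46845554-46845853 (plus).
Hif1a: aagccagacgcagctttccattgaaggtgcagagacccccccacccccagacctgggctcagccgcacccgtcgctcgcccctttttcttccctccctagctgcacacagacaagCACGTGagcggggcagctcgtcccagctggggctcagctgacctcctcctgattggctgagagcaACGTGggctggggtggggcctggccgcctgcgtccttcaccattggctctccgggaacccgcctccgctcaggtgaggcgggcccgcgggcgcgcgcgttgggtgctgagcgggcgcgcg
Hk2: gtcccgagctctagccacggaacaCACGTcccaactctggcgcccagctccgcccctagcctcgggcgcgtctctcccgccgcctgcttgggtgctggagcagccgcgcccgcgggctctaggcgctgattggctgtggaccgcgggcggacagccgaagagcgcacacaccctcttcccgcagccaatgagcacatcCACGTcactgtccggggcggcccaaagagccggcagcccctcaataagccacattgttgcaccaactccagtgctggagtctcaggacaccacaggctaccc
Pgk1: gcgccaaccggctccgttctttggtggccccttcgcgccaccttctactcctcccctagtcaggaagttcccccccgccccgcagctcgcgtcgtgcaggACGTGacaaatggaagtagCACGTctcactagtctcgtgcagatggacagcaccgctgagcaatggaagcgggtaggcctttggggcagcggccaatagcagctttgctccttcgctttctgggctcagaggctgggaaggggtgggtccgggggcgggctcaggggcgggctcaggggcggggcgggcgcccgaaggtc
Pkm: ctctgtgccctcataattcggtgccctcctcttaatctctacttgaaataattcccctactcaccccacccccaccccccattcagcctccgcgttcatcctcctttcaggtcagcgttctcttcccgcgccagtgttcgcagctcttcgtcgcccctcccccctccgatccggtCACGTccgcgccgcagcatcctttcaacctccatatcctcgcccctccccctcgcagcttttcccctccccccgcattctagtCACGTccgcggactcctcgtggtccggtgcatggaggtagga
Ldha: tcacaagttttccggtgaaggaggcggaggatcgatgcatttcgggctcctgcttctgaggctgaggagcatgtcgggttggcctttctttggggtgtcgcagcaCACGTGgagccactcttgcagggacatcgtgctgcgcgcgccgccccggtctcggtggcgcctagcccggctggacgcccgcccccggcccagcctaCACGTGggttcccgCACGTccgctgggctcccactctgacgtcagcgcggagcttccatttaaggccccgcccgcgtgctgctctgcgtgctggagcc
A match is a run of letters and not a measured binding site. Hif1a holds 3 matches, Hk2, Pgk1 and Pkm 2 each and Ldha 5, counting both copies of ACGTG within CACGTG, and Tpi1 holds none.

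**Figure D1:**
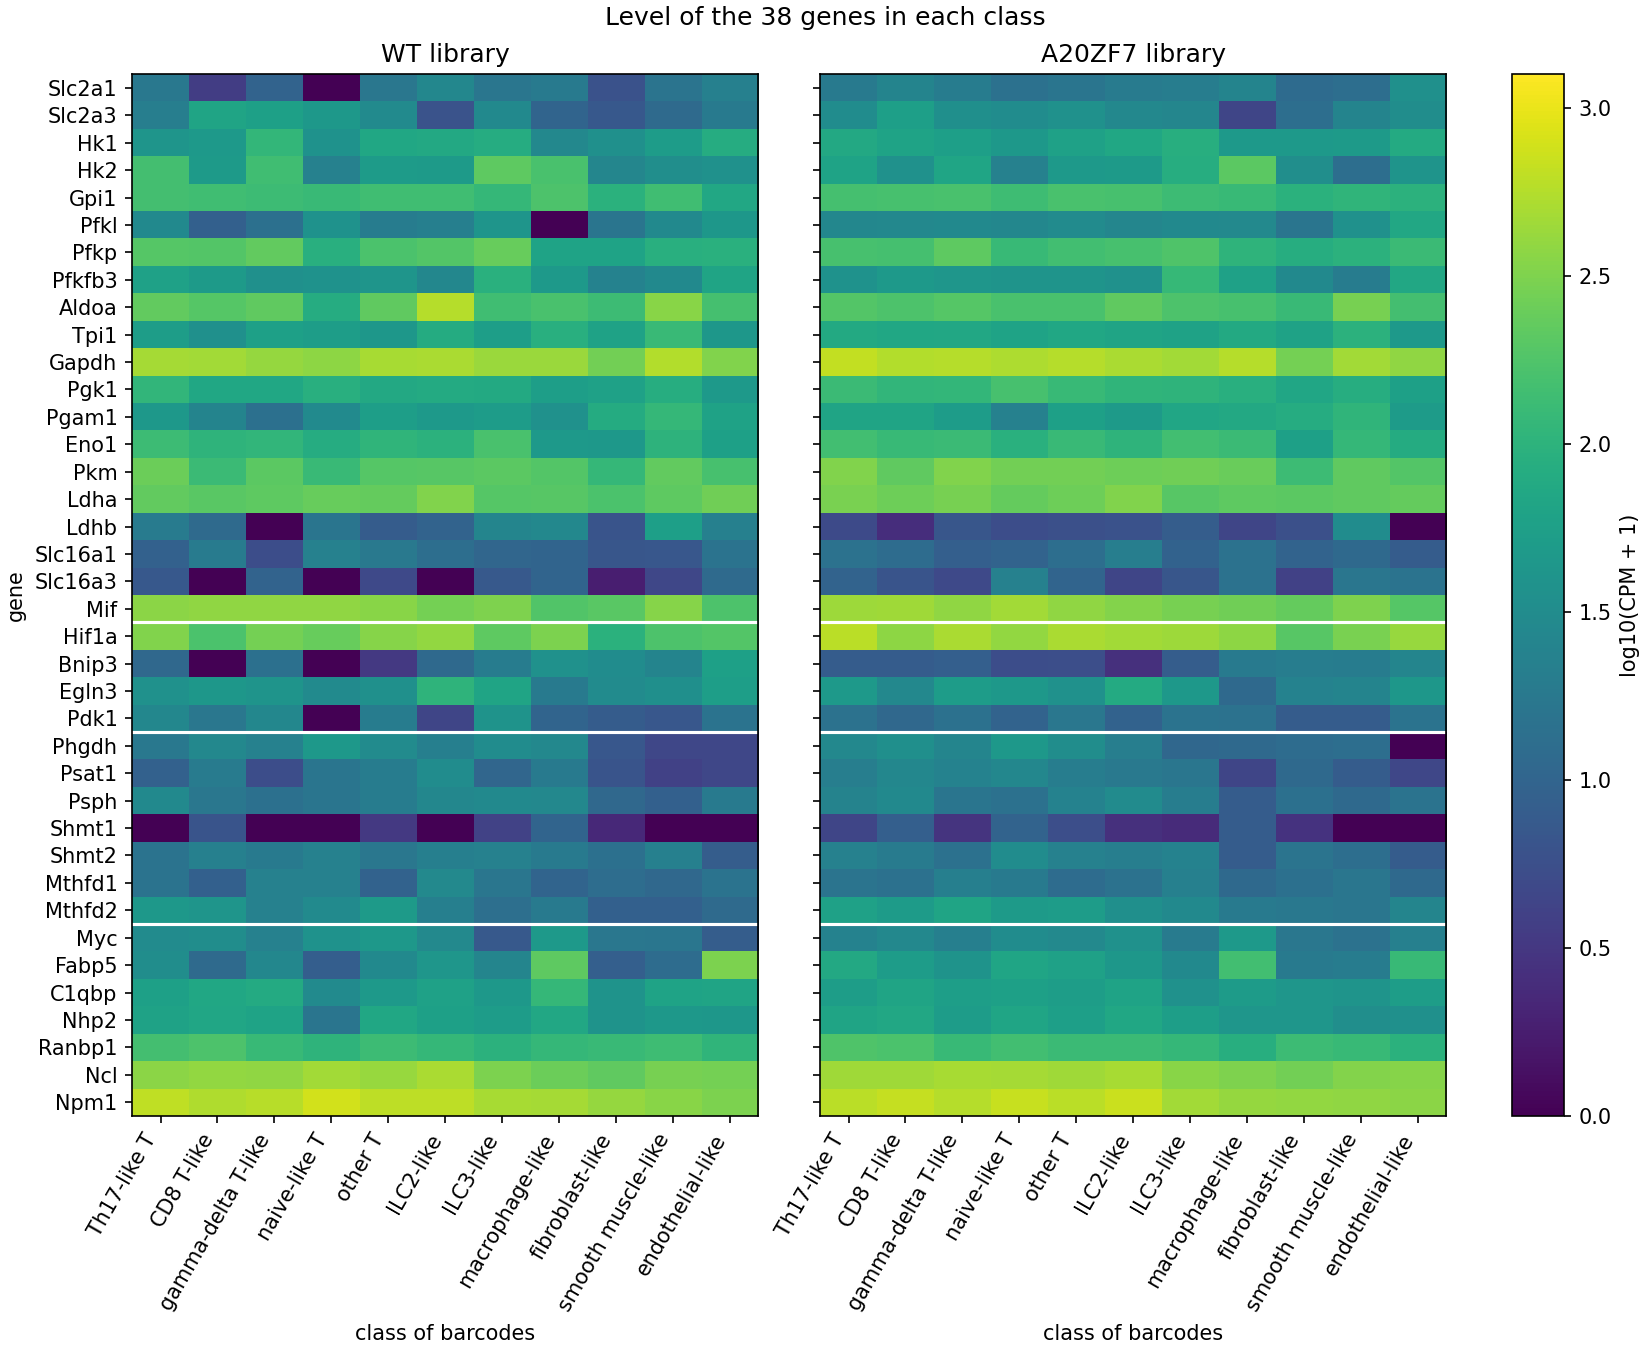
Level of each of the 38 genes (rows) in each class of barcodes (columns), as log10(CPM + 1), in the WT library and the A20ZF7 library. Along their rows, Aldoa stands out in WT ILC2-like and smooth muscle-like barcodes (571 and 355 CPM) and Fabp5 in WT macrophage-like and endothelial-like barcodes (214 and 307 CPM).

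Across the classes, most of the 38 genes were found everywhere, and a few stood out in a cell type. Aldoa, the aldolase that cleaves fructose bisphosphate, was highest in WT ILC2-like barcodes at 571 CPM (95% Poisson interval, 512–636), above smooth muscle-like barcodes at 355 CPM (327–385), and the other classes ran from 81.6 to 223 CPM in WT. Hk2, the inducible hexokinase, was highest in WT ILC3-like (213 CPM, 166–270), macrophage-like (161 CPM, 95.2–254) and Th17-like barcodes (150 CPM, 118–188), whose intervals overlap. Fabp5, a carrier of fatty acids that is also a vascular gene, was highest in WT endothelial-like (307 CPM, 245–379) and macrophage-like barcodes (214 CPM, 137–319), which overlap, and lay between 7.42 and 41.4 CPM in the other classes. Slc2a3, a glucose transporter, was highest in CD8 T-like barcodes of both genotypes (64.0 and 55.0 CPM). Tpi1, Pgam1 and Ldhb were highest in WT smooth muscle-like barcodes, at 124, 114 and 55.3 CPM, and Ldhb was at 0 to 26.8 CPM in the other WT classes. Egln3, the prolyl hydroxylase that HIF induces, was highest in ILC2-like barcodes (104 and 78.0 CPM), and Pfkfb3, which makes the activator of phosphofructokinase, in ILC3-like barcodes (91.0 and 119 CPM). Bnip3, a mitophagy gene, was highest in endothelial-like barcodes (57.1 and 24.6 CPM). The intervals of the highest and second class overlap in both libraries for Egln3, Pfkfb3, Bnip3 and Tpi1, in WT for Slc2a3 and Ldhb, and in A20ZF7 for Pgam1, so these orders are not separated by counting error.

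**Figure D2:**
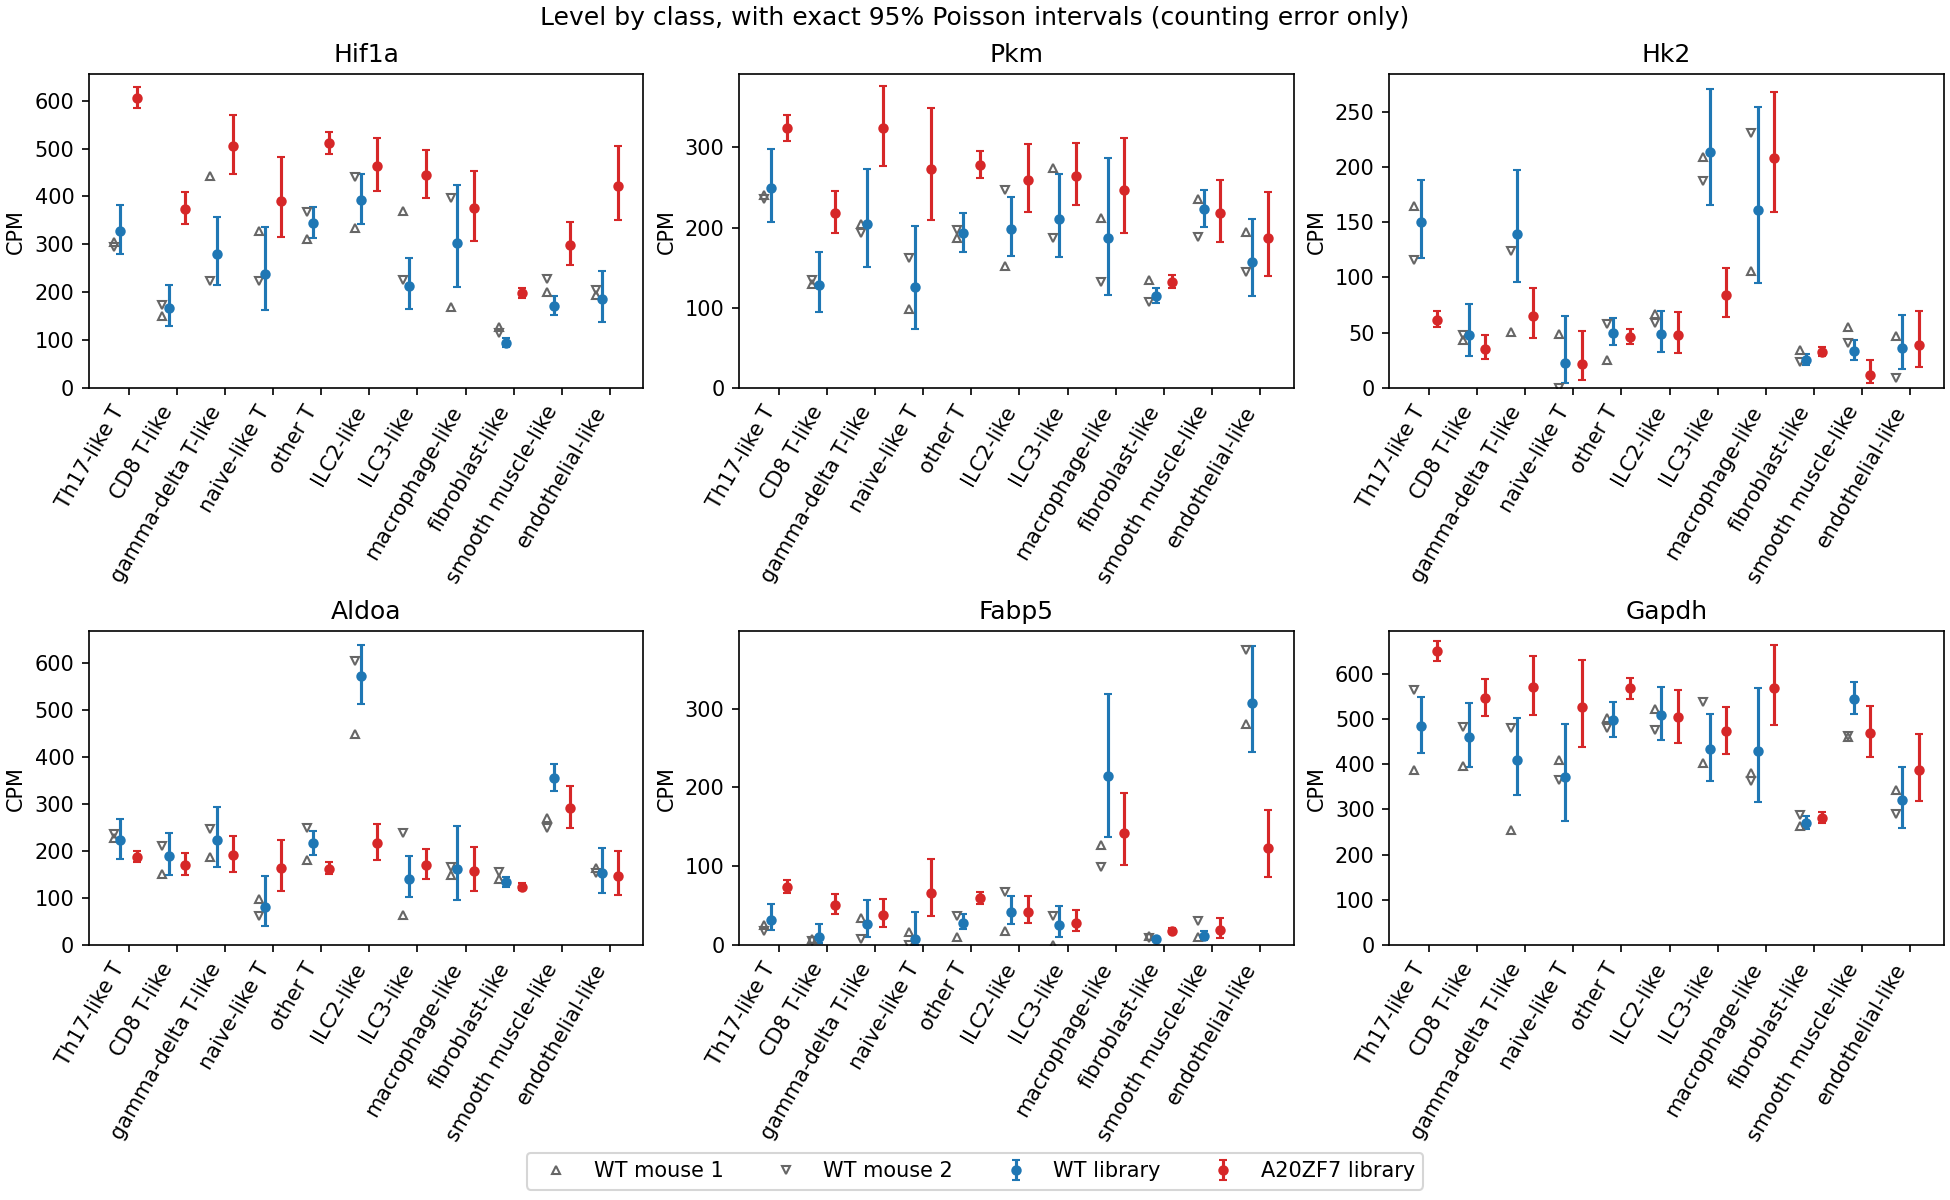
CPM in each class for Hif1a, Pkm, Hk2, Aldoa, Fabp5 and Gapdh, with the WT and A20ZF7 libraries as filled points, their exact 95% Poisson intervals (counting error only) as bars and the WT mice as open triangles. Hif1a lies higher in A20ZF7 in 11 of 11 classes, while Aldoa in ILC2-like barcodes and Hk2 in ILC3-like and Th17-like barcodes lie lower.

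In all T cells, the members called higher in A20ZF7 were Hif1a and enzymes of the middle and last steps of glycolysis. Of 19 members that passed the filter on low values (a mean of 50 CPM and 10 expected UMIs), 4 were at least 1.5-fold higher in A20ZF7 (Hif1a, Tpi1, Pgk1 and Pkm), against 5.46% of the 3243 genes that passed, and 0 were at least 1.5-fold lower, against 3.89%. Tpi1 was at 45.1 CPM in WT, so it passed the filter through its A20ZF7 level. The median log2 ratio of the 19 members was 0.19, against 0.03 over all genes, and 14 of 19 lay above 1 (73.7%), against 55.4% of all genes. Between the WT mice, 0 of 16 members were 1.5-fold higher or lower in mouse 2, where 0.783% and 0.439% of 3191 genes were. Both WT mice are in 1 library, so here and below their spread cannot measure differences between libraries. Tpi1, at 30.7 and 51.7 CPM in the mice, had a mean under 50 CPM and was not among the 16. By group, 3 of the 13 genes of the glycolysis and lactate group that passed, Mif among them, were called higher (median log2 ratio 0.27). The 1 HIF-linked gene that passed was called, 0 of 7 serine genes passed the filter, and 0 of 5 Myc-linked genes that passed were called (median 0.04).

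For glucose uptake and the first steps, ratios lay between 0.691 and 1.36. Slc2a1, the main glucose transporter of activated lymphocytes, was at 12.7 CPM in WT and 17.2 CPM in A20ZF7 T cells (ratio 1.36, 0.935–2.02), and Slc2a3 at 37.0 and 36.6 CPM. Hk1, the constitutive hexokinase, was at 61.3 and 64.8 CPM, and Gpi1, the isomerase, at 140 and 156 CPM. Hk2 was at 55.9 CPM in T cells of WT mouse 1, 72.3 CPM in WT mouse 2, 75.5 CPM over the WT library and 52.2 CPM in A20ZF7, a ratio of 0.691 (0.588–0.816). Its A20ZF7 level is below both WT mice, but only just below mouse 1. Pfkp, the platelet-type phosphofructokinase, was at 174 and 151 CPM (ratio 0.871, 0.785–0.968), but A20ZF7 lay between the WT mice (146 and 183 CPM). Pfkl, the liver form, was at 20.4 and 27.5 CPM. Aldoa was at 207 and 176 CPM (ratio 0.853, 0.775–0.939), with the A20ZF7 level just under that of WT mouse 1 (180 CPM) and under that of mouse 2 (232 CPM).

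Of the steps after aldolase, Tpi1, Pgk1 and Pkm were called higher in A20ZF7 T cells, and none of them was called without dividing barcodes. Tpi1, triose phosphate isomerase, was at 30.7 CPM in WT mouse 1, 51.7 CPM in WT mouse 2 and 72.7 CPM in A20ZF7, and the ratio to the whole WT library was 1.61 (1.33–1.97). Gapdh, which takes the first oxidative step, was at 443, 492 and 604 CPM in the same order (ratio 1.27, 1.19–1.35). Pgk1, the first enzyme to yield ATP, was at 79.0, 78.7 and 123 CPM (ratio 1.55, 1.34–1.80). For Tpi1, Gapdh and Pgk1, A20ZF7 lay above both WT mice, and Tpi1 differed most between the mice themselves, with a ratio of 1.41 against WT mouse 2 alone. Pgam1, the mutase, was at 42.8, 42.1 and 60.7 CPM (ratio 1.46, 1.19–1.80). Pkm, pyruvate kinase, was at 182, 192 and 296 CPM (ratio 1.55, 1.41–1.71), so that the WT mice lay close together and A20ZF7 was apart from both. Barcodes with at most 50 UMIs, which hold free RNA, had Pgk1 at 76.9 CPM in WT and 126 CPM in A20ZF7 (ratio 1.64, 1.24–2.17). The ratio there was 1.36 (1.12–1.64) for Pkm and 0.895 (0.659–1.21) for Tpi1. With that profile taken off, Tpi1, Pgk1 and Pkm stayed called in T cells, and the part of free RNA was not tested further. Eno1, enolase, was at 109 CPM in WT and 132 CPM in A20ZF7 (ratio 1.21, 1.06–1.38), a value that leaves out reads shared with its copy Eno1b (6.93 and 4.26 CPM).

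None of the lactate genes was called in T cells. Ldha, the muscle-type lactate dehydrogenase, was at 224 and 278 CPM in T cells (ratio 1.24, 1.14–1.36), with 205 and 215 CPM in the WT mice. Ldhb, the heart-type form, was seen in 24 WT and 53 A20ZF7 UMIs (9.25 and 4.52 CPM), a ratio of 0.489 (0.297–0.828), and in Th17-like barcodes the ratio was 0.221 (0.0962–0.551) on 9 WT UMIs. It missed the filter in both. The lactate transporters missed the filter, with Slc16a1 at 14.6 and 12.5 CPM and Slc16a3 at 4.24 and 8.62 CPM (11 and 101 UMIs, ratio 2.03, 1.09–4.20). Mif, a cytokine that is often counted with the HIF targets, was at 366 and 423 CPM (ratio 1.15, 1.08–1.24).

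**Figure D3:**
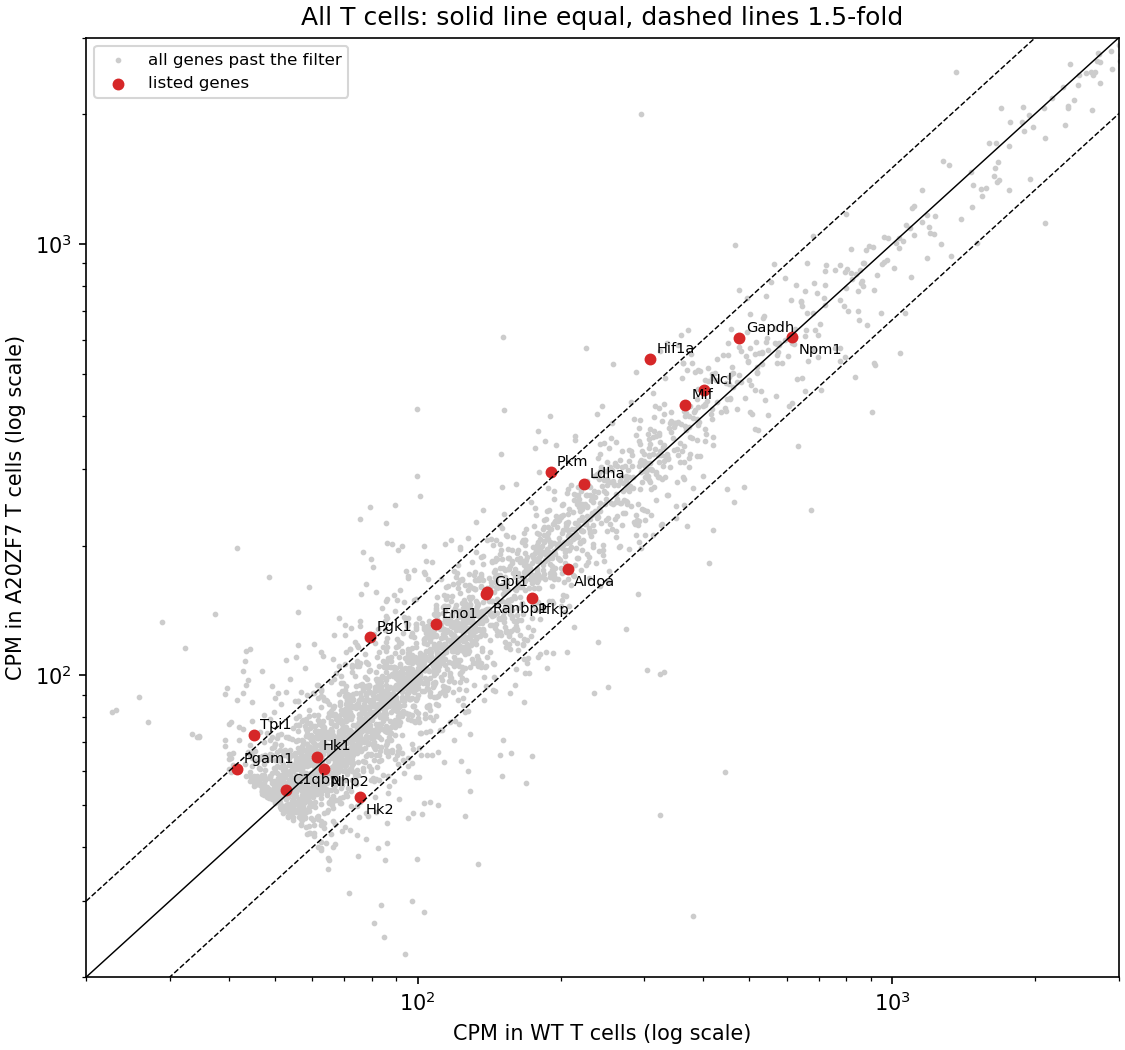
CPM of each gene past the filter in WT T cells (horizontal, log scale) and A20ZF7 T cells (vertical, log scale), with the members marked. The few genes with the highest CPM lie outside the axes. Hif1a, Pkm, Pgk1 and Tpi1 lie above the upper dashed line at 1.5-fold, and the other members lie between the lines.

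Hif1a, which encodes the oxygen-regulated subunit of HIF-1, was the member with an interval above 1 in the most classes. In all T cells it was at 297 CPM in WT mouse 1, 305 CPM in WT mouse 2, 309 CPM (288–331) over the WT library and 540 CPM (526–553) in A20ZF7, a ratio of 1.75 (1.62–1.88). The WT mice nearly coincide and A20ZF7 lies well above both. The ratio was 2.23 (1.71–2.95) in CD8 T-like, 1.85 (1.58–2.18) in Th17-like, 1.81 (1.38–2.42) in γδ T-like, 1.65 (1.09–2.55) in naive-like and 1.48 (1.34–1.65) in other T barcodes. Outside the T cells it was 2.08 (1.60–2.75) in ILC3-like, 2.09 (1.88–2.33) in fibroblast-like, 1.75 (1.44–2.12) in smooth muscle-like and 2.27 (1.63–3.21) in endothelial-like barcodes. In ILC2-like barcodes, which had the most Hif1a in WT (392 CPM), it was 1.19 (0.991–1.42), and in macrophage-like barcodes 1.24 (0.834–1.88), where WT mouse 2 (396 CPM, 12 UMIs) lay above A20ZF7 (375 CPM). The ratio was thus above 1 in 11 of 11 classes, with an interval above 1 in 9, against 7 for Pkm, the next member in that order.

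Several values stand beside that result. Barcodes with at most 50 UMIs, which hold free RNA, also had more Hif1a in A20ZF7 (209 and 337 CPM, ratio 1.61, 1.36–1.91), and when their profile, scaled by immunoglobulin genes, was taken off, the ratio was 1.80 in all T cells, 2.0 in fibroblast-like and 2.34 in endothelial-like barcodes. Fibroblast-like barcodes had 127 and 115 CPM in the WT mice and 198 CPM in A20ZF7, endothelial-like barcodes 195, 204 and 422 CPM, and smooth muscle-like barcodes 200, 228 and 299 CPM, so A20ZF7 lay above both mice in each, by less than 1.5-fold in smooth muscle-like barcodes (1.49 and 1.31). In ILC3-like barcodes the mice were apart, at 370 CPM (23 UMIs) and 225 CPM (18 UMIs), and against mouse 1 alone the ratio was 1.20, while in γδ T-like barcodes it was 1.15 against mouse 1 alone. T cell RNA in the A20ZF7 stromal classes moves with the result there, and its part in the result was not tested.

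The other genes of the HIF-linked group, Bnip3, Egln3 and Pdk1, missed the filter on low values in T cells. Genes of glycolysis, which Myc and HIF-1 control as well, are counted in their own group, where Tpi1, Pgk1 and Pkm were called higher. Whether HIF-1 activity differed was not tested. Bnip3 was at 4.24 and 6.14 CPM in T cells, Egln3 at 37.0 and 39.8 CPM, and Pdk1, the kinase that inhibits pyruvate dehydrogenase, at 19.3 and 13.9 CPM. In fibroblast-like barcodes Bnip3 was at 31 and 19.8 CPM (ratio 0.638, 0.503–0.808) and Egln3 at 30.0 and 22.4 CPM (ratio 0.748, 0.594–0.944). Both intervals lay under 1, but both genes missed the filter in that class. Of a further list of 20 HIF targets and partners, 7 passed the filter in T cells, with a median log2 ratio of -0.04. Of these 7, 1 was at least 1.5-fold higher (Mxi1) and 1 at least 1.5-fold lower (Epas1), against 5.46% and 3.89% of 3243 genes.

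The serine and one-carbon genes lay between 0 and 62.8 CPM over the 11 classes and both libraries, and 0 of 7 passed the filter in T cells. Phgdh, which commits 3-phosphoglycerate to serine, was at 27.7 CPM in WT and 30.0 CPM in A20ZF7 T cells, Psat1, the transaminase, at 15 and 21.3 CPM, and Psph, the phosphatase, at 19.3 and 23.4 CPM. Shmt2 and Mthfd2, the mitochondrial enzymes of one-carbon units, were at 16.6 and 20.9 CPM and at 42.8 and 53.8 CPM, and the cytosolic Mthfd1 was at 11.6 and 13.6 CPM. The intervals of Mthfd2 (ratio 1.26, 1.03–1.55) and Psat1 (1.42, 1.01–2.04) lay above 1, and those of the other 4 included 1. For Psat1 the WT mice were at 24.1 and 8.74 CPM and for Mthfd1 at 14.3 and 6.36 CPM, so that A20ZF7 lay between the mice for both genes. Shmt1 was seen in 5 WT and 53 A20ZF7 UMIs.

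Among the Myc-linked genes, Myc itself was not higher. Its level in T cells was 47.2 CPM in WT mouse 1, 31.8 CPM in WT mouse 2 and 24.7 CPM in A20ZF7, a ratio of 0.655 (0.519–0.833) to the whole WT library, and it missed the filter on low values. The nucleolar and transport genes lay near 1, with Ncl, nucleolin, at 400 and 458 CPM (ratio 1.14, 1.07–1.22), Npm1, nucleophosmin, at 616 and 607 CPM (0.985, 0.933–1.04), Ranbp1, a cofactor of nuclear transport, at 139 and 154 CPM, C1qbp, a mitochondrial matrix protein, at 52.8 and 54.3 CPM, and Nhp2, of the box H/ACA particles, at 63.6 and 60.7 CPM. Fabp5 was the exception. It was at 15.4 CPM in WT mouse 1, 23.8 CPM in WT mouse 2 and 65.8 CPM in A20ZF7 T cells, a ratio of 2.59 (2.01–3.38), although with a mean under 50 CPM it was not counted there. Barcodes with at most 50 UMIs differed too (30.6 and 67.4 CPM), and the part of free RNA in this result was not tested.

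**Figure D4:**
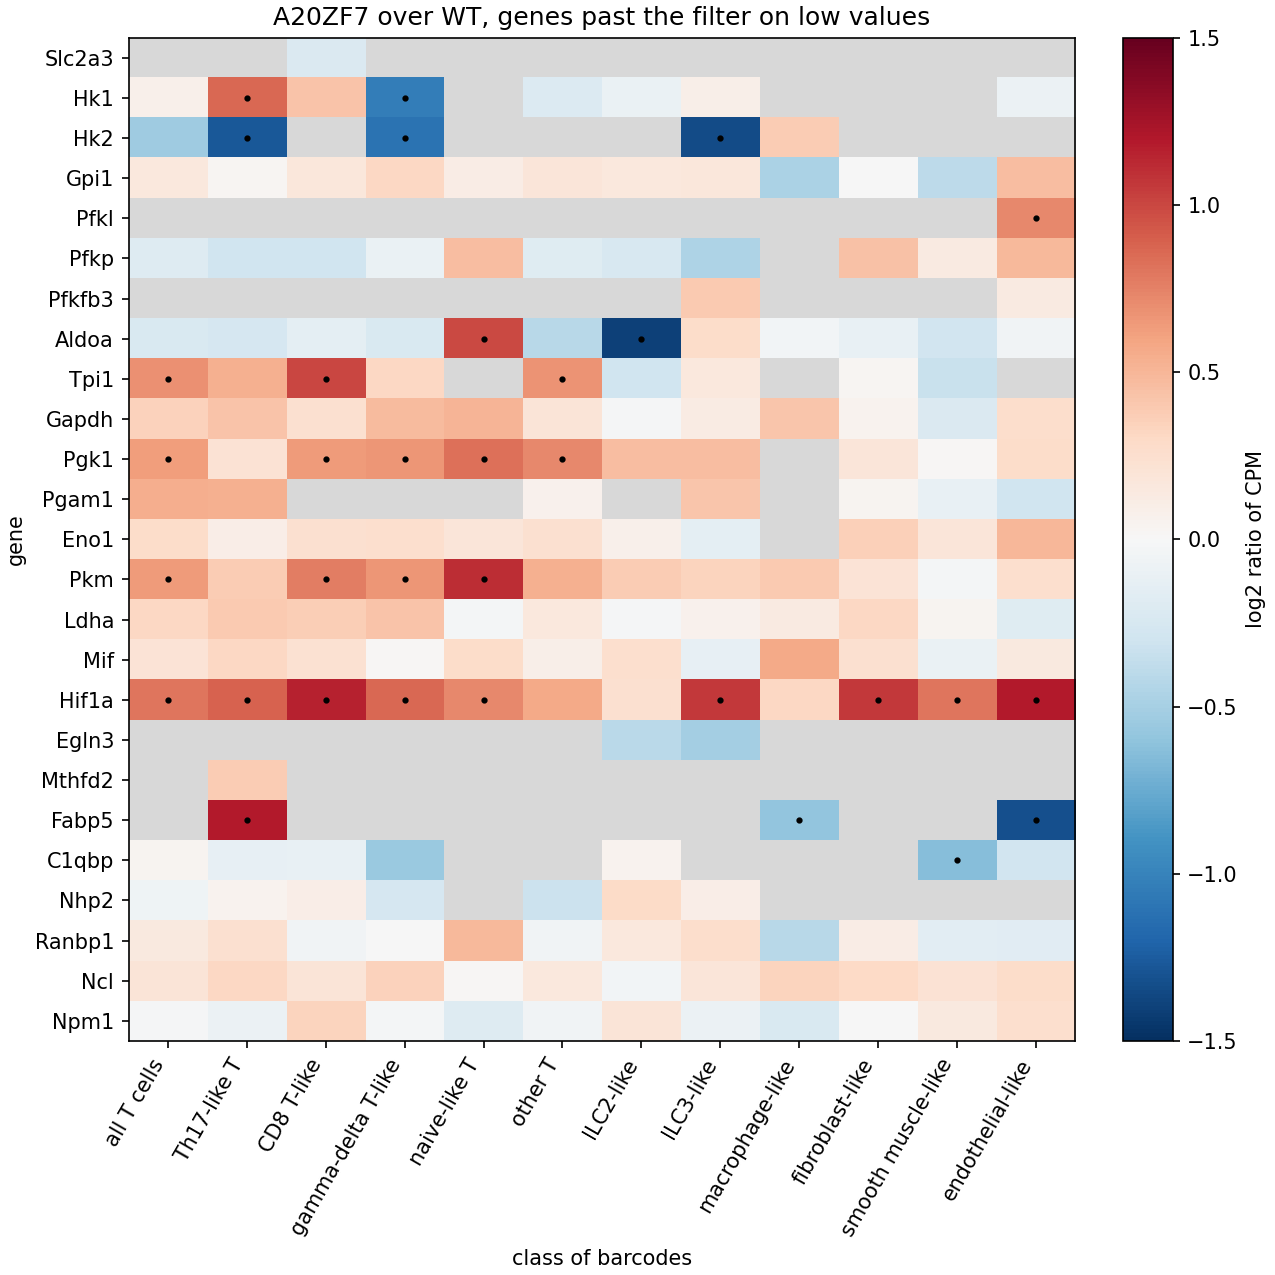
Ratio of A20ZF7 to WT, as log2, for each member (rows) and class (columns) that passed the filter on low values, with the others in grey and a black dot where the ratio is at least 1.5-fold either way. Hif1a lies above 1 in every column, and Hk2 in Th17-like and ILC3-like barcodes, Aldoa in ILC2-like barcodes and Fabp5 in endothelial-like barcodes are the cells furthest below.

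Within the T cells, Hif1a, Pgk1 and Pkm were each called higher in 3 or more subsets, though the interval of Pgk1 included 1 in γδ T-like (1.58, 0.897–2.95) and naive-like barcodes (1.78, 0.904–3.75). Neither Pgk1 (109 and 127 CPM) nor Pkm was called in Th17-like barcodes, and neither Pkm nor Hif1a in other T barcodes. These 2 classes hold the most A20ZF7 T barcodes. In CD8 T-like barcodes 4 of 18 members were called higher, Hif1a, Tpi1 (34.7 and 69.7 CPM), Pgk1 (69.3 and 108 CPM) and Pkm (128 and 218 CPM), and 0 lower, against 8.27% and 6.16% of 3180 genes. Tpi1 was under 50 CPM in WT there and passed the filter through its A20ZF7 level. In γδ T-like barcodes 3 of 18 were higher (Hif1a, Pgk1 and Pkm) and 2 lower (Hk1 and Hk2), against 13.1% and 12.8% of 3295 genes. In naive-like T barcodes 4 of 13 were higher (Hif1a, Pgk1, Pkm and Aldoa) and 0 lower, against 16.4% and 9.57% of 2153 genes. In other T barcodes 2 of 17 were higher (Tpi1 and Pgk1) and 0 lower, against 5.65% and 3.88% of 3221 genes. Single mice decide several of these calls, as the ratio against WT mouse 1 alone was 1.27 for Hk2 in γδ T-like and 1.195 for Hif1a in naive-like barcodes, and that against WT mouse 2 alone was 1.10 for Pgk1 in γδ T-like and 1.21 for Tpi1 in other T barcodes. Pgk1 was above 1 in 11 of 11 classes and Pkm in 10 of 11, the exception being smooth muscle-like barcodes at 0.979. Both were also above 1 in barcodes with at most 50 UMIs (1.64 and 1.36).

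In Th17-like barcodes the 2 hexokinases went opposite ways. Here 3 of 21 members were called higher, Hif1a (328 and 606 CPM), Hk1 and Fabp5, and 1 lower, Hk2, against 8.94% and 7.82% of 3312 genes, and the median log2 ratio of the members was 0.31 against 0.01 over all genes. Hk2 was at 165 CPM in WT mouse 1, 116 CPM in WT mouse 2, 150 CPM (118–188) over the WT library and 61.9 CPM (55.2–69.2) in A20ZF7, a ratio of 0.413 (0.319–0.540), with A20ZF7 below both mice. Hk1 went the other way, from 40.5 CPM (20 UMIs) to 73.8 CPM, a ratio of 1.82 (1.16–3.02), with 50.7 and 40.0 CPM in the WT mice. Fabp5 was at 25.3 and 17.8 CPM in the WT mice (4 UMIs each) and 74.0 CPM in A20ZF7. Hk1 and Fabp5 were under 50 CPM in WT and passed the filter through their A20ZF7 levels. Gapdh was at 484 and 650 CPM (ratio 1.34, 1.18–1.54), Pkm at 249 and 324 CPM (1.30, 1.08–1.57) and Ldha at 227 and 297 CPM (1.31, 1.08–1.60), each under 1.5-fold with an interval above 1. As WT Th17-like barcodes carried more Ncr1 and less Cd4, the class was also read with at least 1 UMI of Cd4 or Cd40lg (141 and 1739 barcodes), an alternative added after the data had been seen. There 3 of 20 members were higher (Hif1a, Hk1 and Tpi1) and 1 lower (Hk2, 116 and 56.2 CPM, ratio 0.486, 0.315–0.779), against 9.63% and 9.85% of genes. A stricter gate, which asks for more marker UMIs (78 and 883 barcodes), ended the calls of Hk2 (0.862), Hk1 (1.33) and Fabp5 (1.13). It kept that of Hif1a and added Gapdh, Ldha and Ranbp1. With it 4 of 13 members were higher and 0 lower, against 10.8% and 12.2% of genes.

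Dividing T cells had more of most of these transcripts. Dividing T barcodes, with at least 2 UMIs of the 6 division genes, numbered 61 in WT and 943 in A20ZF7 and had more UMIs (medians 1748 and 1641) than T barcodes with none (903 and 797). Against those, 10 of 17 members in WT and 15 of 21 in A20ZF7 were at least 1.5-fold higher in dividing barcodes, where 20% and 10.1% of genes were, and the median log2 ratio of the members was 0.86 and 0.83. The filter took the mean of both sides, so a member could pass through its dividing level. In T barcodes without division UMIs, Tpi1 (39.2 CPM), Mthfd2 (37.9) and C1qbp (48.6) of WT were under 50 CPM. So were Pgam1 (49.3 CPM), Mthfd2 (44.8) and C1qbp (48.2) of A20ZF7, and all were among those called. Tpi1 was 3.77-fold (2.20–6.16) higher in WT and 2.72-fold (2.33–3.17) in A20ZF7, Pgk1 2.29-fold and 2.0-fold, Mif 2.36-fold and 1.98-fold, Gapdh 1.91-fold and 1.78-fold, and Ldha 1.81-fold and 1.75-fold. Ranbp1 (3.48-fold and 2.44-fold), C1qbp (2.89-fold and 1.86-fold), Nhp2 (2.74-fold and 2.0-fold) and Npm1 (1.75-fold and 1.52-fold) lay higher as well. Of the serine genes, Mthfd2 alone passed the filter there, with 3.31 (1.85–5.60) and 1.86 (1.52–2.25). Phgdh, at 3.53 (1.66–6.83) and 4.05 (3.21–5.12), and Psat1, at 4.95 and 3.42, rest on 11 and 8 UMIs in dividing WT barcodes, and the WT intervals of Psph, Mthfd1 and Shmt1 included 1. Pkm was at 1.18 (0.789–1.72) in WT and 1.93 (1.78–2.09) in A20ZF7, a difference between the genotypes that was not tested. Hif1a did not follow division, with 1.08 (0.780–1.46) and 0.996 (0.927–1.07).

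**Figure D5:**
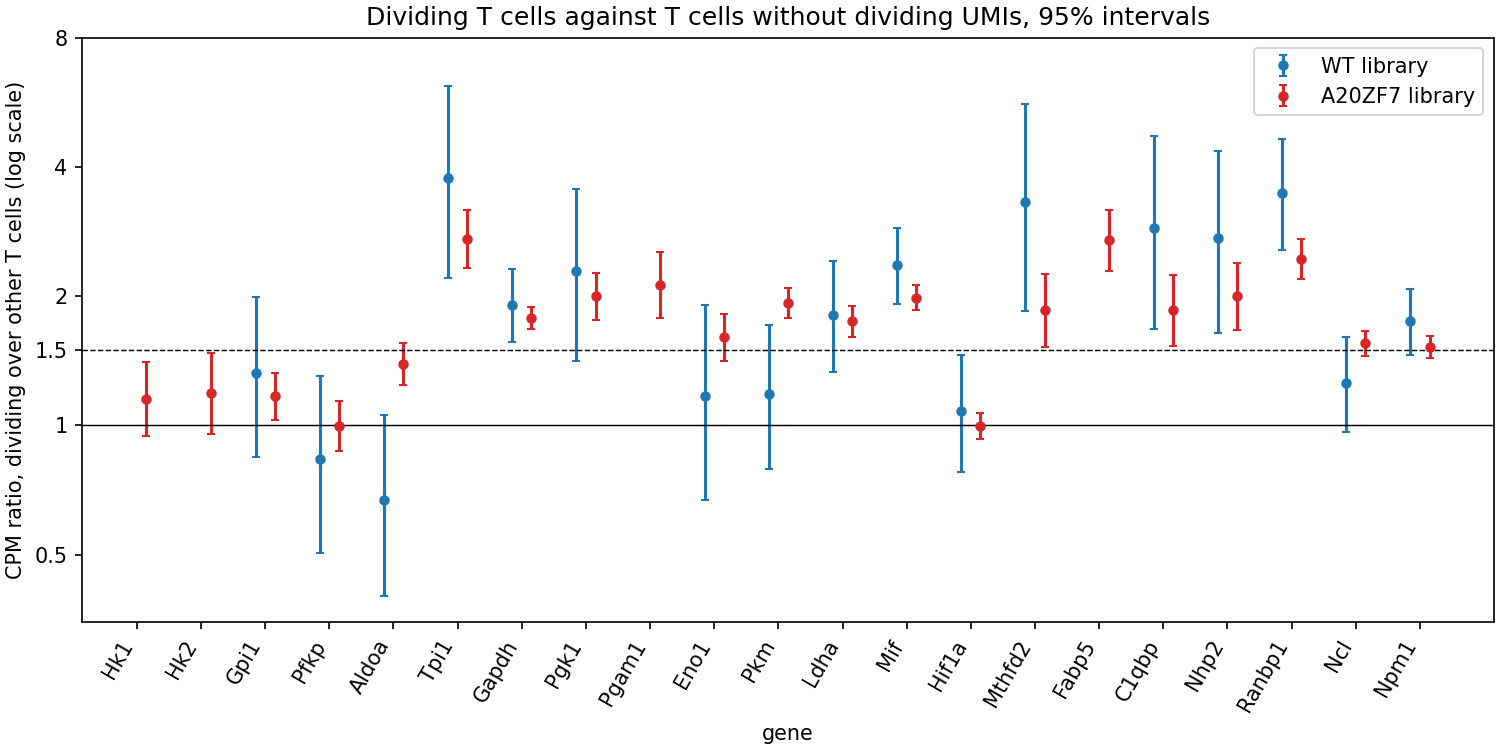
Ratio of CPM in dividing T barcodes to CPM in T barcodes without division UMIs (log scale) for each member, in WT and in A20ZF7, with exact 95% intervals that cover counting error only. Genes past the filter are shown. Tpi1 (3.77 and 2.72) and Ranbp1 (3.48 and 2.44) lie above 1 in both genotypes, and the intervals of Hif1a and Pfkp include 1.

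As dividing barcodes were more common in A20ZF7, the comparison of genotypes was repeated in T barcodes without division UMIs (2194 and 9599). There 1 of 16 members was at least 1.5-fold higher and 1 lower, against 5.45% and 3.63% of 3227 genes, and the median log2 ratio of the members was 0.07. The member called higher was Hif1a, at 308 and 539 CPM (ratio 1.75, 1.62–1.90), and the member called lower was Hk2, at 76.7 and 50.8 CPM (0.663, 0.556–0.792). Pkm was at 187 and 249 CPM (1.33, 1.20–1.48), Pgk1 at 74.1 and 102 CPM (1.37, 1.16–1.62), Tpi1 at 39.2 and 53.9 CPM (1.37, 1.10–1.74) and Gapdh at 445 and 524 CPM (1.18, 1.10–1.26). Each lay below its ratio in all T cells, with an interval above 1. Among dividing barcodes themselves, 5 of 20 members were called higher in A20ZF7 (Aldoa, Eno1, Pkm, Hif1a and Fabp5) and 3 lower (Mthfd2, C1qbp and Nhp2), against 8.99% and 10.1% of 2292 genes. The WT side holds 61 barcodes, and the intervals of Aldoa, Pkm and Hif1a lay above 1 while those of the other 5 included 1. Tpi1 was at 148 CPM in WT and 147 CPM in A20ZF7 there, whereas Pkm was at 222 and 480 CPM (2.17, 1.51–3.23).

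In ILC2-like and ILC3-like barcodes the calls rested on single genes. The gates of these classes ask for no UMI of the T cell genes, so T cells in which none was counted can enter. In ILC2-like barcodes 0 of 18 members were called higher and 1 lower, against 12.6% and 10.4% of 3130 genes. That member was Aldoa, at 449 CPM in WT mouse 1, 603 CPM in WT mouse 2, 571 CPM (512–636) over the WT library and 217 CPM (181–258) in A20ZF7, a ratio of 0.380 (0.307–0.467). Both WT mice lie far above A20ZF7, which is at the level of WT Th17-like barcodes (223 CPM). Gapdh was at 509 and 504 CPM in this class (0.989, 0.839–1.17), Ldha at 326 and 322 CPM (0.987, 0.803–1.21), Pkm at 199 and 259 CPM (1.31, 1.02–1.68) and Pgk1 at 77.7 and 107 CPM (1.37, 0.923–2.06). The counts in this class move with depth, as 5 of 19 members were called higher with at least 1000 UMIs per barcode (Gpi1, Pgk1, Mif, Nhp2 and Ranbp1). At that depth 2 were lower (Hk2 and Aldoa), and over all genes 14.8% were called higher and 16.2% lower. The T cell genes Cd4 (6.91 and 72.9 CPM), Cd5, Cd28 (57.0 and 156 CPM) and Foxp3 (10.4 and 57.7 CPM) moved with the Aldoa result, and their part in it was not tested. Foxp3 was at 22.35 and 64.8 CPM in T cells, so A20ZF7 ILC2-like barcodes lay near T cells for this gene. A second gene ID with the symbol Aldoa held 0 UMIs in T cells and ILC2-like barcodes of both libraries.

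In ILC3-like barcodes 1 of 20 members was called higher (Hif1a) and 1 lower (Hk2), against 13.7% and 10.1% of 3543 genes. Hk2 was at 209 CPM in WT mouse 1, 188 CPM in WT mouse 2, 213 CPM (166–270) over the WT library and 83.8 CPM (63.8–108) in A20ZF7, a ratio of 0.393 (0.272–0.565). Both WT mice lie above the A20ZF7 interval, as they do for the Th17-like class. Of the other classes with over 100 CPM of Hk2 in WT, γδ T-like barcodes had 140 and 64.7 CPM and macrophage-like barcodes 161 and 208 CPM (1.30, 0.756–2.33). T cell genes were higher in A20ZF7 ILC3-like barcodes, where Cd28 was at 72.1 and 286 CPM and Il17a at 53.3 and 1219 CPM. Cd28 was at 404 and 423 CPM in T cells, so for this gene A20ZF7 ILC3-like barcodes lay nearer to T cells than WT ones did. The part of T cell genes in the Hk2 result was not tested.

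In macrophage-like barcodes 0 of 12 members were called higher and 1 lower, Fabp5 (214 and 142 CPM, 0.665, 0.392–1.15), against 14.0% and 10.7% of 1926 genes. Its WT mice were at 127 CPM (6 UMIs) and 99.0 CPM (3 UMIs), both below A20ZF7, so the WT library and its assigned mice give opposite directions. In fibroblast-like barcodes 1 of 15 was higher (Hif1a) and 0 lower, against 7.39% and 4.32% of 3707 genes, with Gapdh at 271 and 282 CPM, Pkm at 115 and 132 CPM and Ldha at 168 and 208 CPM (1.24, 1.14–1.35). In smooth muscle-like barcodes 1 of 16 was higher (Hif1a) and 1 lower (C1qbp, 61.9 and 39.8 CPM, 0.642, 0.390–1.02), against 12.9% and 6.59% of 3506 genes. In endothelial-like barcodes 2 of 19 were higher, Hif1a and Pfkl (42.8 and 70.3 CPM, 1.64, 0.765–3.68), and 1 lower, Fabp5, against 14.1% and 11.7% of 3697 genes. Pfkl was under 50 CPM in WT and passed the filter through its A20ZF7 level, and C1qbp in smooth muscle-like barcodes passed through its WT level. Endothelial Fabp5 was at 280 CPM in WT mouse 1, 375 CPM in WT mouse 2 and 123 CPM (85.7–171) in A20ZF7, a ratio of 0.401 (0.263–0.601), so it was lower than in both WT mice where T cells were higher. The endothelial gene Vwf was at 425 and 345 CPM there.

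The wider pathways were counted in the same way. In T cells, of 32 further genes of glycolysis and pyruvate use, 3 passed the filter and 0 were called. Of 9 genes of the pentose phosphate pathway 3 passed, and of 28 genes of one-carbon and nucleotide synthesis 3 passed, with 0 called in either list. Of 40 genes of the Myc network and the nucleolus 20 passed and 0 were called, with a median log2 ratio of 0.00. In Th17-like barcodes 4 of these lists had 3, 3, 3 and 19 genes past the filter, with 0 called higher and, as lower, Mpc1, a subunit of the mitochondrial pyruvate carrier, in the first and Mxd4 and Eif5a in the Myc network. The HIF list had 7 past the filter in that class, with 0 higher and 2 lower (Ero1l and Epas1), beside the ratio of 1.85 for Hif1a. Over all genes, 8.94% and 7.82% were called higher and lower in Th17-like barcodes, and 5.46% and 3.89% in T cells. In macrophage-like barcodes 2 of 11 genes of the Myc network were higher (Mxd1 and Odc1) and 3 lower (Fbl, Ddx21 and Hspe1), against 14.0% and 10.7% of genes. In fibroblast-like barcodes 2 of 16 were higher (Mxd1 and Odc1) and 0 lower, against 7.39% and 4.32%, and in ILC2-like barcodes 2 of 21 were higher (Odc1 and Cdk4) and 1 lower (Nolc1), against 12.6% and 10.4%. Of the HIF list, Mxi1 was called higher in macrophage-like and fibroblast-like barcodes and Epas1 lower in macrophage-like and ILC2-like ones.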

How the data were processed

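The authors deposited UMI counts per gene and barcode with no filter on cells, made with Cell Ranger 8.0.0 per the gene expression file headers, while the processing notes name Cell Ranger 7.1, R 4.3.3, Seurat 4.3 and mm10. Antibody counts (headers Cell Ranger 7.1.0) served only for the WT hashtags, called with HTODemux of Seurat 5.3.0 in R 4.3.3. Analysis of the gene counts used pandas 2.3.3, scipy 1.17.1 and numpy 2.4.6 under Python 3.11.15, and figures matplotlib 3.10.9.

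Barcodes were kept from 676 UMIs in WT and 397 in A20ZF7 (0.1 times the 99th percentile of the expected cells, in each library), with 200 to 2500 genes and at most 15% mitochondrial UMIs. WT barcodes with both hashtags were removed as well. These were 2547 among all WT barcodes with at least 200 genes, counted before the other limits. Classes were gated by UMIs of marker lists rather than clustered, since clusters would use the 38 genes. A T barcode needs at least 2 UMIs of the T cell genes. A barcode with over 1 UMI of any 1 other lineage took no T or ILC class, except that up to 3 plasma cell UMIs were allowed. Counts were summed per class and library over the 31950 shared gene IDs. CPM have exact Poisson intervals and ratios have exact conditional ones, at 95%. Intervals cover counting error only. Cells are not replicates, so there is no test. A gene with a mean of at least 50 CPM and 10 expected UMIs was counted, and called at 1.5-fold (0.667 for lower). The mean was taken over both sides of a comparison (genotypes, or dividing and other T barcodes), so a gene could pass through the side where it was higher. The script was tested on simulated data. All 38 genes are named, and genes of the further lists only for counts of 5 or fewer. The members and lists were chosen with earlier results of these data known, and the gate minimums were set after the data had been seen. Alternatives changed the UMI minimum, gene limit, gates, CPM total, scaling, free RNA, dividing barcodes, WT mice and the filter on low values.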

Additional observations from a re-analysis of the deposited data

Results flagged for a closer look

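Ratios of A20ZF7 to WT went opposite ways in 2 pairs of classes, with intervals that lie on either side of 1. Hk1, the constitutive hexokinase, had a ratio of 1.82 (95% interval, 1.16–3.02) in Th17-like T barcodes and of 0.487 (0.277–0.860) in γδ T-like barcodes. Fabp5, the fatty acid carrier, had a ratio of 2.28 (1.39–4.04) in Th17-like T barcodes and of 0.401 (0.263–0.601) in endothelial-like barcodes. With 1 library per genotype the difference between the classes was not tested in either case. Hk1 rests on 20 WT UMIs in the Th17-like class and 26 in the γδ T-like class, and Fabp5 on 16 WT UMIs in the Th17-like class and 86 in the endothelial-like class. Both genes were under 50 CPM in WT Th17-like barcodes. With the stricter gate the ratios in that class fell to 1.33 for Hk1 and 1.13 for Fabp5. Barcodes with at most 50 UMIs also had more Fabp5 in A20ZF7 (30.6 and 67.4 CPM).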

How the results depend on the processing

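No paired analysis was possible because each genotype is 1 library of pooled mice and the labels share no replicate numbers. Of 1305 ratios of members recomputed under an alternative, 1208 stayed inside the interval reported and 94 left it. The remaining 3, of called members, crossed 1 and were counted apart from both. Alternatives that changed only the filter on low values leave a ratio as it was. Their ratios are inside the interval by construction and are among the 1208. Of the 1305, 98 lay on the other side of 1 from the value reported, 3 of them ratios of called members and 95 of members not called, of which 20 also left the interval. Of 33 called pairs of gene and class, 11 stayed past 1.5-fold under every alternative that gave a value, where those that changed only the filter could not move a ratio. These included Hif1a in all T cells (1.61 to 1.82), CD8 T-like, Th17-like, fibroblast-like (1.56 to 2.12) and endothelial-like barcodes. Aldoa in ILC2-like barcodes (0.348 to 0.483), Hk2 in ILC3-like barcodes (0.328 to 0.450) and Fabp5 in endothelial-like barcodes (0.233 to 0.439) were also among them. ILC2-like and ILC3-like barcodes held more T cell genes in A20ZF7, and the part of these in the Aldoa and Hk2 results was not tested. Tpi1 (1.38 to 2.37), Pgk1 (1.37 to 1.67) and Pkm (1.33 to 1.74) in all T cells fell under 1.5-fold without dividing barcodes, and Hk2 in Th17-like barcodes ran from 0.376 to 0.862. Of the called members, Fabp5 in macrophage-like barcodes was 1.44 without WT mouse 1 and 1.12 without WT mouse 2, and Hk2 in γδ T-like barcodes was 0.523 without WT mouse 1 and 1.27 without WT mouse 2.

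Counts of members called moved as follows, with the share of all genes called the same way in brackets. Without dividing barcodes, all T cells had 1 of 16 members higher in place of 4 (5.45%) and 1 lower in place of 0 (3.63%). Th17-like barcodes then had 2 of 19 lower in place of 1 (8.415%), and ILC2-like barcodes 2 of 19 lower in place of 1 (11.76%). Macrophage-like barcodes had 2 of 12 lower in place of 1 (10.45%). With at least 1000 UMIs, Th17-like barcodes had 5 of 21 higher in place of 3 (8.58%). At that minimum ILC2-like barcodes had 5 of 19 higher in place of 0 (14.8%) and 2 lower (16.2%). Macrophage-like barcodes had 1 of 11 higher in place of 0 (14.1%) and 0 lower (11.8%). With at least 500 UMIs, ILC2-like barcodes had 1 of 19 higher (11.5%), and macrophage-like barcodes 3 of 16 higher (14.4%) and 0 lower (11.3%). The stricter gate gave 4 of 13 higher in place of 3 (10.8%) and 0 lower (12.2%) in Th17-like barcodes. In ILC2-like barcodes it gave 1 of 19 higher (17.96%) and 2 lower (15.5%). A CPM total without mitochondrial, ribosomal protein, immunoglobulin and Malat1 UMIs gave 2 of 23 lower in Th17-like barcodes (8.92%). Leaving out a WT mouse also leaves out WT barcodes with no assigned mouse. Without WT mouse 1, Th17-like barcodes had 2 of 19 lower (10.15%), and ILC2-like barcodes 1 of 21 higher (14.2%) and 2 lower (13.8%). Macrophage-like barcodes had 1 of 3 higher (8.15%) and 0 lower (10.8%). Without WT mouse 2, Th17-like barcodes had 1 of 14 lower (12.8%), and ILC2-like barcodes 2 of 17 higher (14.3%) and 1 lower (13.5%). Macrophage-like barcodes then had 1 of 6 higher (11.3%) and 1 lower (11.98%). A filter of 20 expected UMIs gave 0 of 8 lower in macrophage-like barcodes (7.015%). With no filter beyond 1 UMI in each genotype, the counts higher and lower were 7 and 2 in all T cells, 8 and 4 in Th17-like, 4 and 5 in ILC2-like, 8 and 11 in macrophage-like and 9 and 1 in fibroblast-like barcodes, and these add genes of few UMIs by construction. For the other moves the cause was not tested. Depth limits the small classes most, as 95 WT macrophage-like barcodes left 12 of 38 members past the filter.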
